A study of Mus musculus with 24 samples.

Results

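The leukotriene pathway was followed here through 9 genes: the enzymes Alox5, Alox5ap, Lta4h and Ltc4s, the other lipoxygenases Alox12 and Alox15, and the receptors Ltb4r1, Cysltr1 and Cysltr2. They were found by symbol among the 38887 Ensembl genes of the deposited count table, and all 9 passed the filter on low counts (14188 genes tested). The RNA came from dendritic cells grown from mouse bone marrow. The 6 groups had 4 replicates each: samples labelled knockout (KO) for IRE1α with zymosan, with lipopolysaccharide (LPS) or untreated, and wild type (WT) samples with zymosan, with LPS or untreated. Zymosan is a yeast cell wall preparation, LPS is a cell wall component of Gram-negative bacteria, and IRE1α is a sensor of stress in the endoplasmic reticulum encoded by Ern1. The allele and how it was deleted, the doses, the treatment times and the age of the mice are not given in the sources used here. Nor do the labels say whether the replicates were separate mice or cultures, so a p-value measures only how these samples spread, which may be technical in part.

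Leukotrienes are lipid signals made from arachidonic acid, which a phospholipase frees from membranes. 5-lipoxygenase (Alox5), helped by its activating protein FLAP (Alox5ap), turns arachidonic acid into leukotriene A4, which leukotriene A4 hydrolase (Lta4h) converts to leukotriene B4 and leukotriene C4 synthase (Ltc4s) to the cysteinyl leukotrienes. Leukotriene B4 acts on the receptor BLT1 (Ltb4r1), a chemoattractant receptor of leukocytes, and cysteinyl leukotrienes act on CysLT1 (Cysltr1) and CysLT2 (Cysltr2); in dendritic cells these lipids are known for their part in migration. Alox12 is the platelet-type lipoxygenase, and the mouse enzyme Alox15 is best known from eosinophils and resident macrophages.

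The 250 bases before the transcription start are shown for 5 of the 9 genes, 3 that fell with both stimuli (Alox5, Lta4h and Ltb4r1) and both that rose (Alox12 and Cysltr2). RefSeq promoter entries (GRCm38.p6) matched 6 of the 9 genes, not Alox5ap, Alox15 or Cysltr1. Capitals mark the GC box GGGCGG, the textbook site of Sp1, on either strand (CCGCCC on the other).
Alox5 (chr6:116461179-116461428, minus strand): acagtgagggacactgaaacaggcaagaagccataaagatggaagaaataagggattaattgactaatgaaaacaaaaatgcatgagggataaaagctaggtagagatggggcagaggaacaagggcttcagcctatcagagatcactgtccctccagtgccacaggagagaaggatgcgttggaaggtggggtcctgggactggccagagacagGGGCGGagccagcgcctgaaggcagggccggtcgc
Lta4h (chr10:93453146-93453395, plus strand): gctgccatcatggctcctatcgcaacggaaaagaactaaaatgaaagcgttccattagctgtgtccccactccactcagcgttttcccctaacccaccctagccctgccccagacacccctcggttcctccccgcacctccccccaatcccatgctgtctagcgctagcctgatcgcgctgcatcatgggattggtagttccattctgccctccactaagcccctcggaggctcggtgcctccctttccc
Ltb4r1 (chr14:55765712-55765961, plus strand): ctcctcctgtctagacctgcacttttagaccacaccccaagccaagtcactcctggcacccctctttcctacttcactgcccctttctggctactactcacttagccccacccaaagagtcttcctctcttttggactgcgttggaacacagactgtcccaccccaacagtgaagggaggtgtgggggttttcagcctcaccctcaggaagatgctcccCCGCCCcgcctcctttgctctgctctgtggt
Alox12 (chr11:70255371-70255620, minus strand): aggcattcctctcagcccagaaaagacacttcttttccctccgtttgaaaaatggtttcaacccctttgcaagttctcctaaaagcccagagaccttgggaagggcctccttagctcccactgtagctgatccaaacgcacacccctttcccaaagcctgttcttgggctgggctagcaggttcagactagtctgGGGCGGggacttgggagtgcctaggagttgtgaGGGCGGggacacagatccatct
Cysltr2 (chr14:73049115-73049364, minus strand): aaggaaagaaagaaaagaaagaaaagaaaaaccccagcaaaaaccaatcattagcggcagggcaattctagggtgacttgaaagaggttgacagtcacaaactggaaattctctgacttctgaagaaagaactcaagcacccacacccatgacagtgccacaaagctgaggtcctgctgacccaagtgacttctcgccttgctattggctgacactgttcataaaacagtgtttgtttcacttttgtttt
Alox5, Alox12 and Ltb4r1 held a GC box, 3 of the 6 matched windows, against 32.7% of the 32851 RefSeq windows of this length. So the box was found upstream both of genes that fell and of a gene that rose. The letters ACGTG, also searched on both strands, were in none of the 6 windows and in 16.6% of all windows. The motifs were chosen after the expression values had been seen, and a match describes letters only. Windows of Lta4h and Cysltr2 held neither motif, and they differed in base composition, with 58.8% and 42.8% G or C.

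Levels are CPM, each count set against its library's TMM-scaled total, with totals of 32223256 to 46927434 counts per sample. To compare genes, CPM was divided by exon length in kilobases (CPM per kb). That length merges the exons of all annotated isoforms and can exceed that of the mRNA present, so ranks between genes are approximate. In CPM alone, Lta4h averaged 151 and Ltb4r1 47.6 in untreated WT samples. Alox5ap (ENSMUSG00000060063, chromosome 5, 149264767 to 149288153) had the highest level per length, with a mean of 172 CPM per kb in untreated WT samples. Ltb4r1 followed with 34.1 CPM per kb (ENSMUSG00000046908, chromosome 14, 55765962 to 55768494), then Lta4h with 24.7 CPM per kb (ENSMUSG00000015889, chromosome 10, 93453411 to 93484875) and Alox5 with 23.4 CPM per kb (ENSMUSG00000025701, chromosome 6, 116410077 to 116461178). The ranges of Lta4h and Alox5 overlapped, so on this scale these neighbours did not differ beyond their spread. Cysltr1 had 11.5 CPM per kb (ENSMUSG00000052821, chromosome X, 106574346 to 106603679), Alox15 6.15 (ENSMUSG00000018924, chromosome 11, 70344152 to 70352031) and Ltc4s 4.91 (ENSMUSG00000020377, chromosome 11, 50236461 to 50238616). Ranges of Alox15 and Ltc4s overlapped too. Cysltr2 at 0.369 CPM per kb (ENSMUSG00000033470, chromosome 14, 73025603 to 73049114) and Alox12 at 0.134 CPM per kb (ENSMUSG00000000320, chromosome 11, 70241457 to 70255353) were the lowest. For Alox12 this rested on 106 counts summed over the 4 samples. Positions are GENCODE M21 on GRCm38, and whole genes were counted, so neither isoforms nor single exons can be read from these values.

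**Figure D1:**
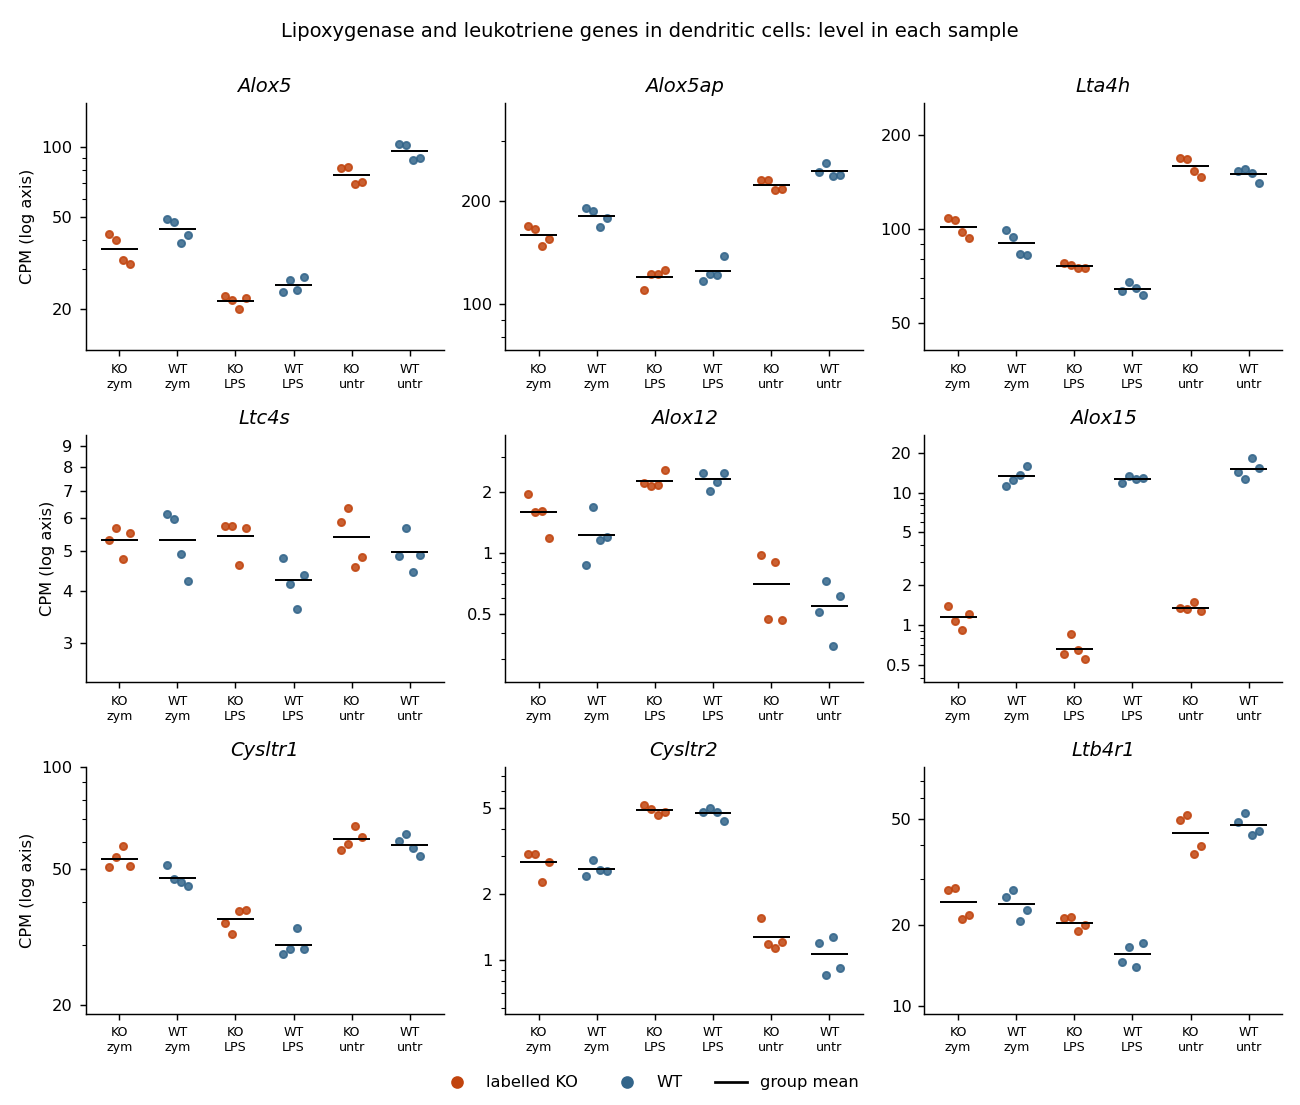
Level of each of the 9 genes in each sample (points, CPM on a log axis with its own range per gene), by group, with the group mean as a bar. Alox5, Alox5ap, Lta4h, Cysltr1 and Ltb4r1 had their highest group means in untreated samples, and Alox12 and Cysltr2 lay highest with LPS. Alox15 was at most 1.49 CPM in samples labelled KO and at least 11.2 CPM in WT samples.

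Both stimuli lowered the transcripts of Alox5, Alox5ap and Lta4h in WT cells, LPS more than zymosan. The receptors Ltb4r1 and Cysltr1 fell with each stimulus too. Cysltr2 and Alox12, both of low level, rose with each. With zymosan 2 of the 9 genes were higher and 5 lower, where 34.3% and 35.9% of all genes tested were called in these directions. With LPS 2 were higher and 6 lower, against 35.9% and 39.7% of all genes. The median log2 fold change of the 9 genes was -0.33 with zymosan and -0.97 with LPS, and that of all genes tested was -0.01 and -0.04. The samples of both groups did not overlap for 7 of the 9 genes with zymosan and for 7 with LPS, against 64.0% and 71.3% of all genes. Both comparisons share the untreated samples. In bulk RNA, fewer cells that express a gene and less of its RNA per cell cannot be told apart.

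Alox5, which carries out the first oxygenation, was at 48.9, 47.5, 38.8 and 42.0 CPM with zymosan and at 23.8, 26.9, 24.3 and 27.5 CPM with LPS, against 104, 103, 88.3 and 90.3 CPM in untreated WT samples. The 3 conditions did not overlap, and the LPS samples were the lowest. The fall was 2.17-fold with zymosan (log2 -1.12 ± 0.09, SE) and 3.76-fold with LPS (-1.91 ± 0.09), with edgeR adjusted p = 2.43e-11 and 7.12e-16. Alox5ap, the membrane protein that presents arachidonic acid to 5-lipoxygenase, was at 191, 187, 168 and 179 CPM with zymosan and at 117, 122, 122 and 138 CPM with LPS, against 243, 258, 237 and 239 CPM untreated. Again no sample of one condition reached another condition. Its falls were smaller than those of Alox5, with log2 values of -0.43 ± 0.06 and -0.97 ± 0.06 (edgeR adjusted p = 1.70e-07 and 3.30e-14).

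Lta4h, the enzyme that forms leukotriene B4, was at 99.6, 94.4, 83.6 and 82.9 CPM with zymosan and at 63.3, 67.9, 64.7 and 61.4 CPM with LPS, against 154, 156, 152 and 140 CPM in untreated WT samples. Every stimulated sample lay below every untreated one. The log2 fold change was -0.74 ± 0.06 with zymosan and -1.23 ± 0.06 with LPS (edgeR adjusted p = 3.47e-11 and 1.18e-15). Ltc4s, which acts on the same intermediate, had 6.14, 5.99, 4.92 and 4.23 CPM with zymosan and 4.82, 4.18, 3.62 and 4.38 CPM with LPS, against 4.87, 5.69, 4.46 and 4.88 CPM untreated. These ranges overlapped, and neither test passed, with log2 values of 0.09 ± 0.12 and -0.23 ± 0.12 (edgeR adjusted p = 0.512 and 0.0935). Ltc4s shares 268 exon bases with the antisense gene Gm26542, whose group means were 0.178 to 0.288 CPM; whether the counting used strand is not given in the sources used here.

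Among the receptors, Ltb4r1 was at 25.7, 27.1, 20.9 and 22.8 CPM with zymosan and at 14.6, 16.6, 14.0 and 17.2 CPM with LPS, against 48.8, 52.7, 43.7 and 45.2 CPM in untreated WT samples. The conditions were fully apart. Its fall was 1.97-fold with zymosan (log2 -0.98 ± 0.10) and 3.05-fold with LPS (-1.61 ± 0.11), with edgeR adjusted p = 7.80e-09 and 9.16e-13. Cysltr1, the cysteinyl leukotriene receptor targeted by asthma drugs such as montelukast, was at 51.4, 46.7, 45.8 and 44.7 CPM with zymosan and at 28.2, 29.2, 33.6 and 29.1 CPM with LPS, against 60.5, 63.6, 57.6 and 54.6 CPM untreated. It fell with log2 values of -0.33 ± 0.07 and -0.98 ± 0.07 (edgeR adjusted p = 0.000103 and 1.33e-12). Cysltr2, the other receptor of these lipids, went the opposite way.

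Cysltr2 had 2.44, 2.88, 2.60 and 2.56 CPM with zymosan and 4.76, 4.98, 4.76 and 4.35 CPM with LPS, against 1.19, 0.848, 1.27 and 0.919 CPM in untreated WT samples. No sample of one condition overlapped another. The rise was 2.48-fold with zymosan (log2 1.31 ± 0.13) and 4.46-fold with LPS (2.16 ± 0.12), with edgeR adjusted p = 1.43e-09 and 2.07e-14. Per length the mRNA of Cysltr1 still exceeded that of Cysltr2 in LPS-treated WT samples, with means of 5.84 and 1.64 CPM per kb.

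Alox12 had 0.873, 1.70, 1.16 and 1.21 CPM with zymosan and 2.49, 2.03, 2.25 and 2.50 CPM with LPS, against 0.509, 0.724, 0.345 and 0.613 CPM untreated. It rose 2.26-fold with zymosan (log2 1.17 ± 0.25) and 4.19-fold with LPS (2.07 ± 0.24), with edgeR adjusted p = 0.000166 and 1.37e-08. The 5 platelet and megakaryocyte markers summed to 483 to 733 CPM with zymosan and 488 to 506 CPM with LPS, against 373 to 503 CPM in untreated WT samples, and their part in the Alox12 result was not tested. Alox15 had 11.2, 12.4, 13.6 and 15.9 CPM with zymosan and 11.7, 13.4, 12.7 and 13.0 CPM with LPS, against 14.3, 12.6, 18.2 and 15.3 CPM untreated. The groups overlapped, and its log2 values were -0.18 ± 0.10 with zymosan (edgeR adjusted p = 0.107) and -0.25 ± 0.10 with LPS (0.0276). The LPS call was lost with DESeq2 (adjusted p = 0.0820) and without WT untreated replicate 3 or 4 or WT LPS replicate 1.

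**Figure D2:**
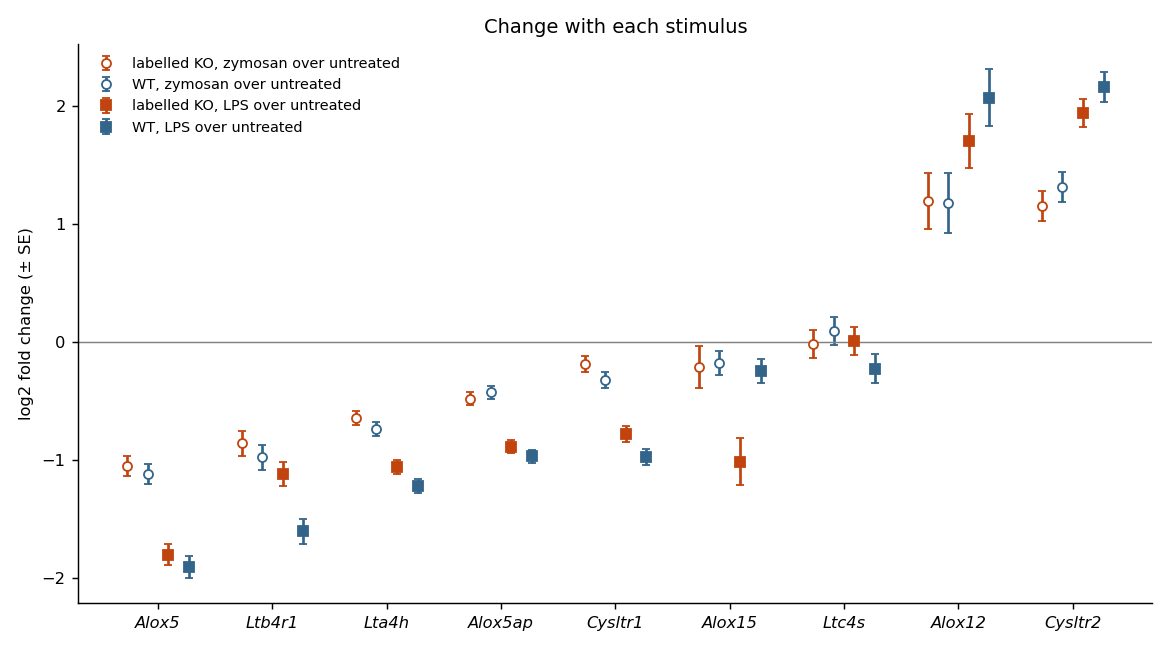
Log2 fold change (± SE, vertical axis) of each gene (horizontal axis) with zymosan (open circles) and LPS (filled squares) over untreated cells, for samples labelled KO (orange) and WT samples (blue), n = 4 per group. Alox5 shows the largest falls (log2 -1.91 with LPS in WT) and Cysltr2 and Alox12 the largest rises (2.16 and 2.07).

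Set directly against each other in WT cells, zymosan left 6 of the 9 transcripts higher than LPS did and 2 lower, where 24.5% and 21.9% of all genes were called. The 6 were Alox5, Alox5ap, Lta4h, Cysltr1, Ltb4r1 and Ltc4s, with log2 differences, zymosan over LPS, of 0.32 (Ltc4s) to 0.79 (Alox5). The 2 lower with zymosan were Alox12 (-0.89 ± 0.22) and Cysltr2 (-0.85 ± 0.11). Thus all 7 genes called against untreated cells with both stimuli were called here too, with the smaller change on the zymosan side, and in 7 of the 9 genes the samples did not overlap, against 42.8% of all genes. The Ltc4s difference had edgeR adjusted p = 0.0379 and its groups overlapped; it was lost with replicates 1 and 2, and 3 and 4, summed (0.157) and when any 1 of 5 libraries was left out, WT zymosan replicate 1 or 2 or WT LPS replicate 2, 3 or 4 (0.0542 to 0.134).

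In samples labelled KO the responses ran the same way. With zymosan 2 genes were higher and 5 lower, against 31.6% and 35.2% of all genes, and with LPS 2 were higher and 6 lower, against 34.4% and 37.4%. Samples did not overlap for 6 and 8 of the 9 genes, against 60.4% and 65.3% of all genes. Alox5 averaged 36.6 ± 5.35 CPM with zymosan and 21.8 ± 1.21 CPM with LPS, against 76.0 ± 6.86 CPM untreated (SD, n = 4 each), log2 changes of -1.05 ± 0.09 and -1.80 ± 0.09. Alox5ap had log2 changes of -0.48 ± 0.06 and -0.89 ± 0.06, and Lta4h of -0.65 ± 0.06 and -1.06 ± 0.06. Cysltr2 rose by 1.15 ± 0.12 and 1.94 ± 0.12 on the log2 scale, and Alox12 by 1.19 ± 0.24 and 1.70 ± 0.23. Ltc4s did not pass with either stimulus (log2 -0.02 ± 0.12 and 0.01 ± 0.12).

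The other 3 genes were Cysltr1, Ltb4r1 and Alox15. Cysltr1 fell by 0.19 ± 0.07 with zymosan and by 0.78 ± 0.07 with LPS on the log2 scale. Its zymosan and untreated samples overlapped. The zymosan call (edgeR adjusted p = 0.0127) was lost without KO untreated replicate 3 (0.0610) and with replicate pairs summed (0.0726). Ltb4r1 fell by 0.86 ± 0.11 with zymosan and by 1.12 ± 0.11 with LPS. Alox15 was at -0.22 ± 0.18 with zymosan, which did not pass, and fell by 1.02 ± 0.20 with LPS (edgeR adjusted p = 4.96e-05). Zymosan against LPS gave 5 genes higher and 1 lower in these samples, where 22.7% and 20.0% of all genes were called. Alox5, Alox5ap, Lta4h, Cysltr1 and Alox15 were higher with zymosan and Cysltr2 was lower. Samples did not overlap for 7 of the 9 genes, against 38.8% of all genes.

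Before the genotype labels were compared, the labelled gene was read. Ern1 mRNA was not lower but higher in samples labelled KO in all 3 conditions. The log2 difference was 0.31 ± 0.05 with zymosan, 0.46 ± 0.05 with LPS and 0.31 ± 0.05 untreated (edgeR adjusted p = 6.48e-05, 1.43e-07 and 6.99e-05). It was at 48.2 to 54.6 CPM in untreated samples labelled KO and 40.2 to 43.3 CPM in untreated WT samples, at 35.6 to 39.2 CPM against 29.5 to 30.7 CPM in WT with zymosan, and at 36.6 to 41.8 CPM against 27.1 to 29.9 CPM in WT with LPS. A whole-gene count includes exons that a conditional allele can leave in place, so it does not check the deletion, and the group is called by its label.

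Alox15 set the genotype labels apart more than any other of the 9 genes. It was at 1.39, 1.06, 0.915 and 1.22 CPM in KO-labelled samples with zymosan, against 11.2, 12.4, 13.6 and 15.9 CPM in WT samples with zymosan. With LPS it was at 0.602, 0.849, 0.642 and 0.557 CPM in samples labelled KO, against 11.7, 13.4, 12.7 and 13.0 CPM in WT samples. Untreated, it was at 1.33, 1.32, 1.49 and 1.27 CPM under the KO label, against 14.3, 12.6, 18.2 and 15.3 CPM in WT. No sample labelled KO came near a WT sample in any condition. The log2 difference was -3.52 ± 0.15 with zymosan (11.5-fold lower), -4.25 ± 0.18 with LPS (19.1-fold lower) and -3.48 ± 0.13 untreated, with edgeR adjusted p = 1.16e-15, 7.73e-17 and 1.86e-16. In replicates 1 and 2 alone the differences were -3.27, -4.11 and -3.34, and in replicates 3 and 4 alone -3.76, -4.42 and -3.60.

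Markers of eosinophils, cells known to express Alox15, moved with the label. The 10 listed markers summed to 90.9 to 125 CPM in KO-labelled samples with zymosan, against 1002 to 1301 CPM in WT samples with zymosan. With LPS the sums were 92.9 to 111 CPM under the KO label and 1074 to 1146 CPM in WT, and untreated 80.6 to 103 CPM and 881 to 1141 CPM. Of the 9 markers tested, 7 were lower under the KO label with zymosan, 8 with LPS and 7 untreated, and none was higher. Of all genes, 11.4%, 18.2% and 5.64% were called lower in these comparisons. Epx, eosinophil peroxidase, averaged 0.754 CPM under the KO label with zymosan, against 172 CPM in WT, and Prg2, the granule major basic protein, 7.92 against 728 CPM. The surface receptor Siglecf did not pass with zymosan (edgeR adjusted p = 0.114), at 18.1 ± 0.702 CPM under the KO label with zymosan and 20.0 ± 1.06 CPM in WT (SD, n = 4 each). Every listed marker had counts in every group. Within a group the markers did not share 1 order. In WT zymosan replicates 1 to 4, Epx was at 185, 196, 147 and 161 CPM and Prg2 at 850, 875, 571 and 615 CPM. Ear2, another listed marker, was at 71.1, 74.4, 92.2 and 100 CPM there, and Alox15 at 11.2, 12.4, 13.6 and 15.9 CPM. The part of eosinophils in the Alox15 result was not tested.

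Macrophage markers, of which all 10 listed were tested, moved with the label under stimulation. They summed to 2604 to 2879 CPM in KO-labelled samples with zymosan, against 3424 to 3573 CPM in WT samples with zymosan, and 6 of the 10 were lower and none higher. With LPS they summed to 2405 to 2465 CPM under the KO label and 3515 to 3684 CPM in WT, and 10 were lower. Untreated, the sums overlapped, at 2266 to 2499 CPM under the KO label and 2344 to 2562 CPM in WT, with 3 lower. Of all genes, 11.4% were called lower under the KO label with zymosan, 18.2% with LPS and 5.64% untreated. Their part in the differences between labels, that of Alox15 included, was not tested.

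**Figure D3:**
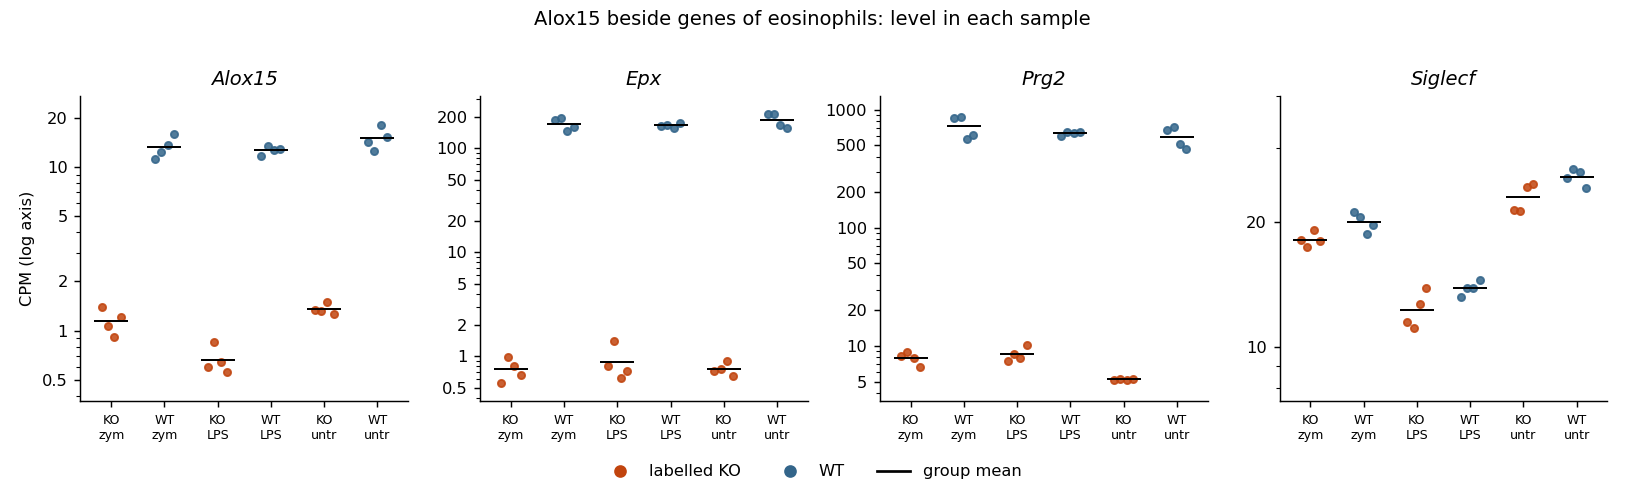
Level of Alox15 and of the eosinophil genes Epx, Prg2 and Siglecf in each sample (points, CPM on log axes with a range per gene), by group, with group means as bars. Alox15, Epx and Prg2 lie apart between samples labelled KO and WT samples in all 3 conditions, while Siglecf averaged 22.9 CPM in untreated samples labelled KO and 25.7 CPM in untreated WT samples.

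Another lipoxygenase gene, Alox12e, had too few counts to be tested. It summed to 2, 4 and 8 counts over the 4 samples labelled KO with zymosan, with LPS and untreated, against 27, 18 and 36 counts over the 4 WT samples. Alox12e is a paralog of Alox15, and reads shared between near copies can be split by the counting, so these counts are uncertain. Alox8, another lipoxygenase, averaged 0.463 ± 0.0523 CPM under the KO label and 0.950 ± 0.230 CPM in WT when untreated (SD, n = 4 each), a log2 difference of -1.03 ± 0.23 (edgeR adjusted p = 0.00304). That call was lost in replicates 3 and 4 alone (log2 -0.63, 0.236) and with replicate pairs summed (0.105).

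The other 8 genes had far smaller differences between genotype labels, and the ones that passed were not the same in each condition. With zymosan 2 of the 9 were higher and 3 lower under the KO label, where 10.6% and 11.4% of all genes were called. With LPS 4 were higher and 1 lower, against 15.6% and 18.2% of all genes. Untreated, 0 were higher and 2 lower, against 4.31% and 5.64% of all genes. Samples of the labels did not overlap for 1 of the 9 genes with zymosan, 4 with LPS and 3 untreated, against 20.8%, 34.4% and 14.5% of all genes. Alox15 is among the lower genes in each condition, so beside it the counts were 2 higher and 2 lower with zymosan, 4 higher and none lower with LPS, and 1 lower untreated. The eosinophil markers above differed in the same comparisons, and their part in these differences was not tested.

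Alox5 was lower under the KO label. Untreated, it was at 81.8, 82.1, 69.4 and 70.8 CPM in samples labelled KO, against 104, 103, 88.3 and 90.3 CPM in WT samples. The groups did not overlap, and the log2 difference was -0.34 ± 0.09 (edgeR adjusted p = 0.00925). With zymosan it was at 42.4, 39.7, 32.6 and 31.5 CPM under the KO label, against 48.9, 47.5, 38.8 and 42.0 CPM in WT. The groups overlapped as a whole, yet in each pair of replicates (1 with 2, and 3 with 4) both KO-labelled samples lay below both WT samples. These pairs were seen in the data, and the labels do not match replicate numbers across groups. The log2 difference was -0.27 ± 0.09 (edgeR adjusted p = 0.0302). With LPS the difference was -0.24 ± 0.09 and missed the threshold (0.0570), though it passed with DESeq2 (0.0316).

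Alox5ap was at 170, 166, 148 and 155 CPM with zymosan under the KO label, against 191, 187, 168 and 179 CPM in WT. Its log2 difference was -0.18 ± 0.06 (edgeR adjusted p = 0.0184). It did not pass untreated (-0.13 ± 0.06, edgeR adjusted p = 0.160) or with LPS (-0.05 ± 0.06, 0.509). Untreated, the 4 samples labelled KO, at 215 to 230 CPM, nonetheless lay below the 4 WT samples, at 237 to 258 CPM.

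Lta4h and Cysltr1 were higher under the KO label with both stimuli. Lta4h was at 108, 107, 98.2 and 93.5 CPM with zymosan under the KO label, against 99.6, 94.4, 83.6 and 82.9 CPM in WT, a log2 difference of 0.18 ± 0.06 (edgeR adjusted p = 0.0336). With LPS it was at 78.0, 77.1, 75.3 and 75.1 CPM, against 63.3, 67.9, 64.7 and 61.4 CPM in WT. These LPS groups were fully apart, with a log2 difference of 0.25 ± 0.06 (edgeR adjusted p = 0.00248). Cysltr1 was at 50.6, 54.4, 58.6 and 51.2 CPM with zymosan under the KO label, against 51.4, 46.7, 45.8 and 44.7 CPM in WT, a log2 difference of 0.19 ± 0.07 (edgeR adjusted p = 0.0453). With LPS it was at 34.7, 32.2, 37.7 and 37.8 CPM, against 28.2, 29.2, 33.6 and 29.1 CPM, and the log2 difference was 0.24 ± 0.07 (edgeR adjusted p = 0.00750). Its groups overlapped in both conditions.

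Ltb4r1 and Ltc4s were higher under the KO label with LPS. Ltb4r1 was at 21.4, 21.4, 19.0 and 20.1 CPM with LPS under the KO label, against 14.6, 16.6, 14.0 and 17.2 CPM in WT. The groups did not overlap, and the log2 difference was 0.39 ± 0.11 (edgeR adjusted p = 0.00878). It was 0.02 ± 0.11 with zymosan and -0.09 ± 0.10 untreated, neither of which passed. Ltc4s was at 5.74, 5.74, 4.63 and 5.70 CPM with LPS under the KO label, against 4.82, 4.18, 3.62 and 4.38 CPM in WT, with 1 KO-labelled sample inside the WT range. Its log2 difference was 0.36 ± 0.12 (edgeR adjusted p = 0.0260), and the call was lost when WT LPS replicate 2 or 3 or KO LPS replicate 1, 2 or 4 was left out (0.0536 to 0.0996). Alox12 and Cysltr2 passed in none of the 3 conditions, with log2 differences of -0.02 to 0.36 and 0.05 to 0.27.

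**Figure D4:**
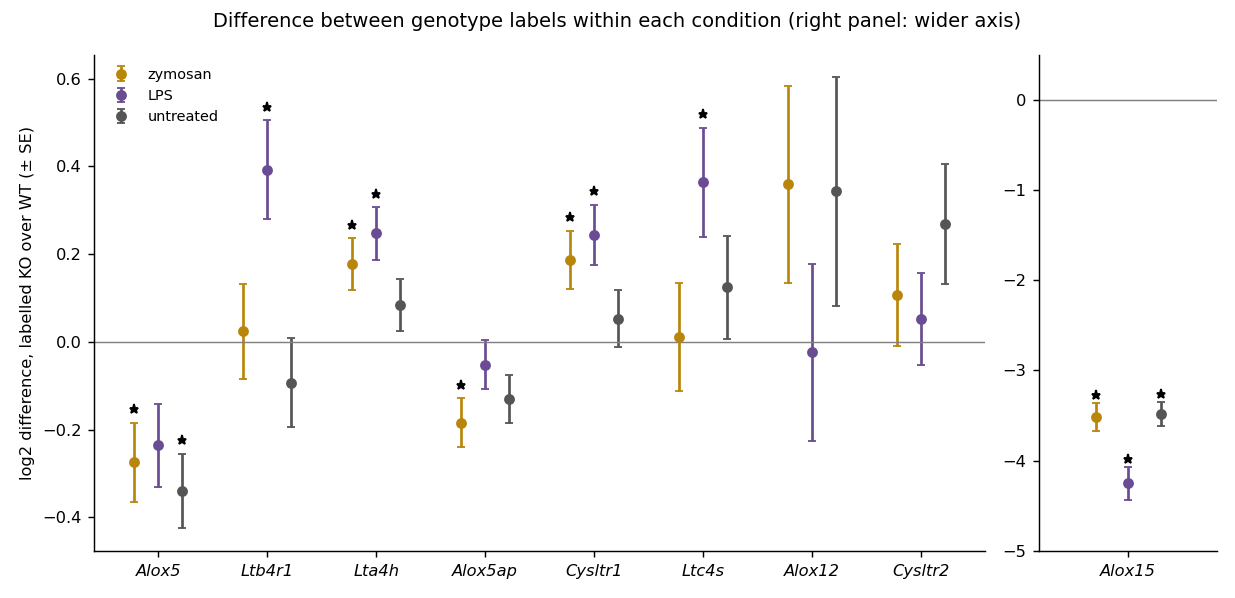
Log2 difference, labelled KO over WT (± SE, vertical axis), of each gene with zymosan, with LPS and untreated (n = 4 per group); stars mark an edgeR adjusted p under 0.05, and the right panel has a wider axis for Alox15. Alox15 reaches -4.25 with LPS, while the other 8 genes stay between -0.34 and 0.39.

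Summing replicate pairs ended the calls of these small differences, with the log2 values nearly as before. Replicates 1 and 2 of a group resembled each other, and 3 and 4 each other, with a chi-square per gene of 1.92 to 9.03 in these 12 pairs and 7.35 to 27.8 in the other 24. With each such pair summed to 1 sample, 2 sums per group, Alox15 was the only gene of the 9 still called between the labels in any condition; the other calls had edgeR adjusted p = 0.0864 to 0.297. Alox5 untreated, for one, was at log2 -0.34 both ways, and Lta4h with LPS at 0.24 summed and 0.25 unsummed. The share of all genes called with pairs summed is not given here, so the loss of calls is not read as particular to these genes. The zymosan calls of Alox5, Alox5ap, Lta4h and Cysltr1 were also lost when certain single libraries were left out (edgeR adjusted p = 0.0510 to 0.142).

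Whether the response itself differed by genotype label was tested as an interaction, the log2 response in samples labelled KO minus that in WT. For zymosan 0 of the 9 genes passed edgeR's test, where 1.82% of all genes were called; none of the 9 had an unadjusted p under 0.05, and DESeq2 called 0 too. For LPS 1 was higher and 1 lower, against 4.61% and 5.84% of all genes. Ltb4r1 fell less with LPS under the KO label, by 1.12 on the log2 scale against 1.61 in WT, a difference of 0.49 ± 0.15 (edgeR adjusted p = 0.0406). Alox15 fell more under the KO label, by 1.02 against 0.25 in WT, a difference of -0.77 ± 0.22 (edgeR adjusted p = 0.0258). With replicate pairs summed, 2 sums per group, the differences were 0.48 and -0.78 and neither passed (edgeR adjusted p = 0.388 and 0.224). The Ltb4r1 call was lost when any 1 of 9 of the 16 libraries was left out (0.0520 to 0.0896), and that of Alox15 without KO untreated replicate 3, KO LPS replicate 1 or KO LPS replicate 4 (0.0562 to 0.0632).

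The genes whose log2 CPM followed each of the 9 most closely over the 24 samples were listed by Pearson's r, as a description; the 24 points share the same stimulus and genotype groups. Alox5 and Alox5ap were among each other's 3 closest genes (r = 0.983). Alox15 lay closest to Txndc11 (r = 0.994), Nucb2 (0.989) and Ddost (0.983). Txndc11 averaged 16.7 ± 0.623 CPM under the KO label with zymosan and 35.5 ± 1.81 CPM in WT, and 17.7 ± 0.766 and 34.3 ± 2.05 CPM untreated (SD, n = 4 each). So the gene most like Alox15 in pattern differed by a smaller factor between the labels. Lta4h lay closest to Galm (0.994) and Gsn (0.993), Ltb4r1 to Cdk4 (0.986), Cysltr1 to Itgam (0.979), Cysltr2 to Zfp811 (0.984) and Ptpn1 (0.982), and Alox12 to Spon1 (0.954). Ltc4s had the weakest best match, Commd4 (0.812).

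Around the 9 genes, 45 other genes of arachidonic acid release, lipoxygenation, leukotriene conversion, breakdown and sensing were followed, of which 33 were tested. In WT cells zymosan raised 10 and lowered 14 of the 33, and LPS raised 10 and lowered 16, beside the shares of all genes given above; medians were -0.18 and -0.33 (log2). Pla2g4a, the cytosolic phospholipase A2 that frees arachidonic acid, averaged 153 ± 3.59 CPM with zymosan and 182 ± 5.61 CPM with LPS, against 51.0 ± 1.54 CPM in untreated WT samples (SD, n = 4 each). It rose by 1.59 ± 0.06 and 1.84 ± 0.06 on the log2 scale, while Alox5 and Alox5ap fell. Of the 4 genes listed as helpers and regulators of 5-lipoxygenase, 1 was higher and 2 lower with each stimulus. Cotl1, coactosin-like protein, whose human form binds 5-lipoxygenase, fell by 0.82 ± 0.04 and 1.41 ± 0.04, and Gpx1, a glutathione peroxidase, by 0.54 ± 0.07 and 1.00 ± 0.07. The kinase gene Mapkapk2 went the other way, averaging 513 ± 18.5 CPM with zymosan and 573 ± 29.1 CPM with LPS. In untreated WT samples it averaged 230 ± 2.20 CPM (SD, n = 4 each).

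The next steps of the cysteinyl leukotrienes did not share a direction. Mgst2, a microsomal enzyme that can also make leukotriene C4, fell by 0.67 ± 0.09 with zymosan and by 1.05 ± 0.09 with LPS. Dpep2, a dipeptidase that turns leukotriene D4 into E4, rose by 0.41 ± 0.04 and 0.37 ± 0.04, and Ggt5, the peptidase that turns C4 into D4, fell by 1.22 ± 0.15 and 1.92 ± 0.17. Abcc1, the exporter of leukotriene C4, rose by 0.27 ± 0.04 with zymosan, and was at -0.11 ± 0.04 with LPS (edgeR adjusted p = 0.0352), a call that DESeq2 did not make (0.158). Cyp4f16, a member of the cytochrome family that breaks down leukotriene B4, fell by 1.30 ± 0.06 and 1.53 ± 0.06. Ptgr1, which also inactivates leukotriene B4, had log2 values of 0.12 ± 0.06 and -0.13 ± 0.06, with edgeR adjusted p = 0.0524 and 0.0342. The epoxide hydrolase Ephx1 fell by 1.2 ± 0.08 and 1.51 ± 0.09.

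The 3 largest rises among the 33 genes were in receptors. Gpr31b, the mouse counterpart of the human 12-HETE receptor GPR31, averaged 1.53 ± 0.399 CPM with zymosan and 8.0 ± 0.233 CPM with LPS, against 0.183 ± 0.049 CPM in untreated WT samples (SD, n = 4 each). Its rise was 3.05 ± 0.26 and 5.43 ± 0.25 on the log2 scale. Fpr1 and Fpr2, formyl peptide receptors of which Fpr2 also binds lipoxin A4, rose by 2.30 ± 0.08 and 2.00 ± 0.07 with zymosan and by 2.50 ± 0.08 and 2.36 ± 0.07 with LPS. Ltb4r2, the low-affinity leukotriene B4 receptor, had 24 to 59 counts summed over each WT group and did not pass with either stimulus. These genes were also set between the stimuli. In WT cells 14 of the 33 were higher with zymosan than with LPS and 8 lower, where 24.5% and 21.9% of all genes were called. Gpr31b was the lowest of these (-2.39 ± 0.14), followed by Abcc4 (-0.67 ± 0.07) and Gpr18 (-0.51 ± 0.14), and Ephx2, Ggt5 and Cotl1 had the largest positive differences among those called (0.90 ± 0.31, 0.70 ± 0.18 and 0.59 ± 0.04). The Ephx2 call (edgeR adjusted p = 0.0166) was lost without WT zymosan replicate 1 (0.0610) or WT LPS replicate 2 (0.0876), with replicate pairs summed (0.0837), with only the groups compared in the model (0.0682), and in replicates 3 and 4 alone, where the log2 difference was 0.20 (0.761).

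**Figure D5:**
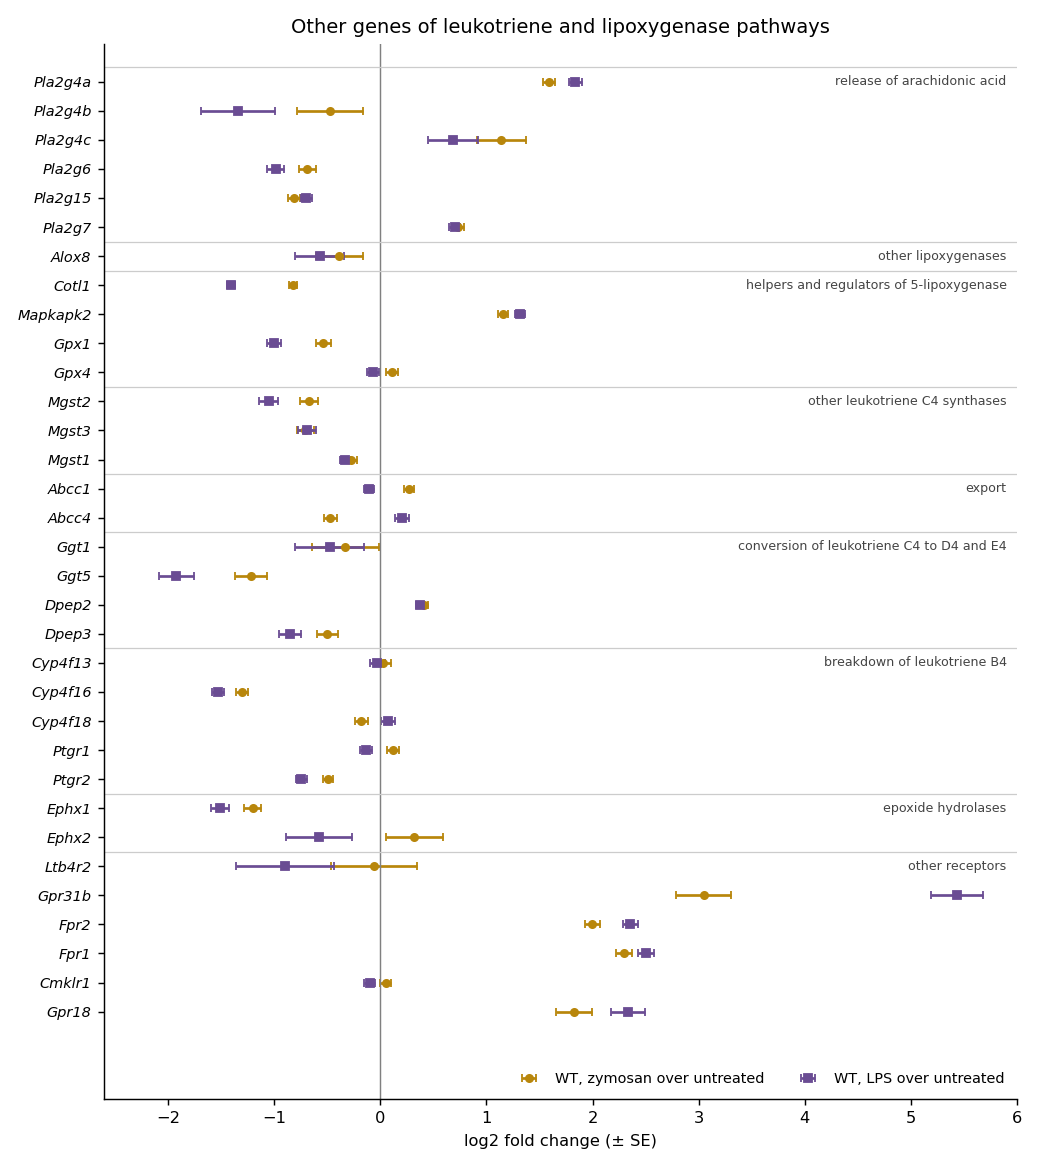
Log2 fold change (± SE, horizontal axis) with zymosan (circles) and LPS (squares) over untreated WT cells (n = 4 per group) for the 33 tested genes around the leukotriene pathway, grouped by role. Gpr31b, Fpr1, Fpr2 and Gpr18 lie farthest to the right and Ggt5, Cyp4f16 and Ephx1 farthest to the left with LPS.

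Under the KO label the same stimuli raised 10 and lowered 13 of the 33 with zymosan, and raised 8 and lowered 17 with LPS, where 31.6% and 35.2% of all genes were called with zymosan and 34.4% and 37.4% with LPS. Gpr31b rose by 2.70 ± 0.26 and 4.90 ± 0.24 on the log2 scale, Fpr1 by 2.07 ± 0.08 and 2.02 ± 0.08, and Fpr2 by 1.96 ± 0.07 and 2.25 ± 0.07. Cyp4f16, Ggt5 and Ephx1 again had the largest falls. Zymosan against LPS gave 12 higher and 5 lower there, where 22.7% and 20.0% of all genes were called.

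Between the labels, 6 of the 33 were higher and 8 lower with zymosan, 7 higher and 11 lower with LPS, and 3 higher and 5 lower untreated. The shares of all genes were 10.6% and 11.4% with zymosan, 15.6% and 18.2% with LPS, and 4.31% and 5.64% untreated. Cyp4f18, which degrades leukotriene B4 in mouse leukocytes, averaged 15.4 ± 0.899 CPM under the KO label with zymosan and 28.1 ± 2.06 CPM in WT, 18.8 ± 1.22 and 33.4 ± 2.11 CPM with LPS, and 22.2 ± 1.2 and 31.8 ± 2.65 CPM untreated (SD, n = 4 each). No samples overlapped, and the log2 differences were -0.87 ± 0.07, -0.83 ± 0.07 and -0.52 ± 0.06 (edgeR adjusted p = 6.32e-10, 6.61e-10 and 1.96e-06). Fpr1 was lower under the KO label in each condition, with log2 differences of -0.86 ± 0.08 with zymosan, -1.12 ± 0.08 with LPS and -0.64 ± 0.08 untreated. Pla2g4a was lower with zymosan and with LPS (-0.33 ± 0.06 and -0.20 ± 0.06), and at 0.02 ± 0.06 untreated.

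Other genes were higher under the KO label. Ephx1 averaged 19.1 ± 1.17 CPM under the KO label and 10.9 ± 0.717 CPM in WT with zymosan (SD, n = 4 each), with log2 differences of 0.81 ± 0.09, 0.34 ± 0.09 and 0.55 ± 0.08 with zymosan, with LPS and untreated. Ephx2 had low counts, 29 to 102 summed over each group. Its log2 differences were 0.80 ± 0.25, 0.91 ± 0.31 and 0.80 ± 0.25 in the same order (edgeR adjusted p = 0.0230, 0.0205 and 0.0387). Mgst2 averaged 22.4 ± 0.564 CPM with LPS under the KO label and 14.0 ± 0.799 CPM in WT (SD, n = 4 each), a log2 difference of 0.69 ± 0.09 (edgeR adjusted p = 2.42e-06), and it was 0.31 ± 0.09 with zymosan (0.0133). Mgst2 fell with LPS under both labels and fell less under the KO label, an interaction of 0.57 ± 0.12 (edgeR adjusted p = 0.00410). Of the 33 genes, Mgst2 alone was called with a positive LPS interaction and 4 with a negative one, where 4.61% and 5.84% of all genes were called. The 4 were Gpr18 (-0.73 ± 0.23), Fpr1 (-0.49 ± 0.11), Cyp4f18 (-0.31 ± 0.09) and Mapkapk2 (-0.27 ± 0.07), a kinase known to phosphorylate 5-lipoxygenase. All 5 calls were lost with replicate pairs summed (edgeR adjusted p = 0.223 to 0.349). The Gpr18 call was also lost when any 1 of 12 of the 16 libraries was left out (0.0507 to 0.0856) and that of Cyp4f18 when any 1 of 8 was (0.0502 to 0.0794). With zymosan, Cotl1 fell less under the KO label than in WT (interaction 0.24 ± 0.06), and Pla2g4a rose less (-0.35 ± 0.08). Both zymosan calls were lost with replicate pairs summed (edgeR adjusted p = 0.845 and 0.699) and without KO zymosan replicate 1 or 2, and that of Cotl1 also without KO untreated replicate 3 (0.0514 to 0.0543 over these libraries). Ltb4r2, with 12 counts over the 4 KO-labelled zymosan samples and 45 over the 4 WT ones, had a log2 difference of -1.78 ± 0.58 (edgeR adjusted p = 0.0166), lost without WT zymosan replicate 4 or KO zymosan replicate 1.

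The labelled cell type was read from its markers. The 12 dendritic cell markers, among them Itgax, Cd74 and H2-Aa, were present in every group and summed higher under the KO label. With zymosan they summed to 7247 to 7778 CPM in samples labelled KO and 6141 to 6394 CPM in WT samples, and untreated to 6127 to 6393 CPM and 5069 to 5272 CPM, fully apart both times. With LPS the sums met at the edge, at 6990 to 7407 CPM under the KO label and 6411 to 6991 CPM in WT. Of the 11 tested, 5 were higher and 3 lower under the KO label with zymosan, 4 higher and 3 lower with LPS, and 4 higher and 1 lower untreated. Of all genes, 10.6% and 11.4% were called higher and lower between the labels with zymosan, 15.6% and 18.2% with LPS, and 4.31% and 5.64% untreated. Neutrophil markers summed to 1774 to 2224 CPM with zymosan under the KO label and 1945 to 2658 CPM in WT, to 1958 to 2221 CPM and 1763 to 1912 CPM with LPS, and to 2027 to 2405 CPM and 2163 to 2848 CPM untreated. Mast cell and basophil markers summed lower under the KO label in each condition, at 96.7 to 107 CPM against 127 to 182 CPM in WT with zymosan, 191 to 216 CPM against 238 to 258 CPM with LPS, and 30.8 to 36.6 CPM against 37.1 to 55.5 CPM untreated. The single markers did not share that direction. Among the 8 tested, 1 was higher and 2 lower with zymosan, 2 higher and 2 lower with LPS, and 1 higher and 3 lower untreated. Hdc alone averaged 167 CPM with LPS under the KO label and 215 CPM with LPS in WT. T cell markers were near 0, at most 0.243 CPM. The part of these cells in the values of the 9 genes was not tested.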

How the data were processed

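The authors deposited whole-number counts for each gene in 24 samples. The submitters' processing notes name Bowtie2, DESeq2, RSEM 1.2.31 and the build mm10, with no role or order; RSEM shares out reads that map to several genes, so counts of near-identical copies are less certain. The plan assumed counts with decimals; the deposited counts were whole and were used unchanged. GENCODE M21 (GRCm38) named 37570 of the 38887 identifiers (96.6%), and 14809 genes had no count in any sample.

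All 24 samples entered 1 quasi-likelihood fit in edgeR 4.0.16 (R 4.3.3), with group means as its terms, after TMM scaling and filterByExpr over the 6 groups (minimum count 10). Calls needed an adjusted p under 0.05 (Benjamini-Hochberg, over the 14188 genes tested), named edgeR adjusted p; log2 fold changes are given ± SE of the model with n = 4 samples per group. CPM used TMM factors, similarity between genes used log2 CPM with a prior count of 2, and the script was tested on simulated counts.

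The 9 genes, the list of 45 further pathway genes and the marker lists were chosen with earlier results of these data known. All 9 genes are described, with Ern1, the 3 genes most like each of the 9 (in part), and, of the 45, up to 3 called genes per direction and comparison with the largest change (in part) plus 7 named whatever their values. Genes of that rule left undescribed were Cmklr1, Pla2g4c, Ggt5 between untreated labels, and those of zymosan against LPS under the KO label. Where named outside this rule, Cotl1, Gpx1, Fpr2, Mapkapk2, Alox12e and the marker genes were chosen after their values were seen.

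Alternatives were DESeq2 1.42.0, its size factors, no low-count filter, only the groups compared, a replicate block, replicate pairs summed and each library left out; replicates 1 and 2 alone and 3 and 4 alone were added after seeing the data.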

Additional observations from a re-analysis of the deposited data

Results flagged for a closer look

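Ltc4s with LPS under the KO label had 1 sample apart from the other 3, replicate 3 at 4.63 CPM beside 5.70 to 5.74 CPM. Of the 54 combinations of gene and group looked at for such a gap, this was the only one past the limit, and chance puts about 1 in 20 groups past it.

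The LPS response differed between genotype labels for Alox15 and Ltb4r1 when the difference itself was tested. The log2 response under the KO label minus that in WT was -0.77 for Alox15 and 0.49 for Ltb4r1, with edgeR adjusted p = 0.0258 and 0.0406. In replicates 1 and 2 alone the values were -0.77 and 0.45, and in replicates 3 and 4 alone -0.82 and 0.54. Both subsets are parts of the same samples and were chosen after the data were seen, so they are no separate check. The Alox15 call was lost in replicates 3 and 4 alone (edgeR adjusted p = 0.0642), and neither call was kept with replicate pairs summed.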

How the results depend on the processing

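Of the 99 pairs of gene and comparison, 58 were called, and 44 of these kept direction and call under every alternative. Of the 41 not called, 18 kept direction and side throughout. With replicate pairs summed, members called between the labels dropped to 1 with zymosan, 1 with LPS and 1 untreated, and to 0 in the LPS interaction. A model of only the zymosan groups called 2 between the labels, and replicates 3 and 4 alone called 1 in the LPS interaction. Without single libraries, called members numbered 2 to 4 between the labels with zymosan, 4 to 6 with LPS, 2 each time untreated, and 0 to 2 in the LPS interaction. The shares of all genes called under these settings are not given here. Changes in these counts are therefore not read as particular to the members. Low counts limit Alox12, whose SE was 0.20 to 0.34 (log2) over the 11 comparisons, against 0.10 to 0.22 for Alox15.

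The replicate numbers were not taken to pair the samples, since not every pair of same-numbered samples had deviations correlated over 0.1: r was -0.115 to 0.247 (median 0.043), 12 of 60 over 0.1. Among samples of different number r was -0.247 to 0.296 (median -0.018), 18 of 180 over 0.1, and 12 of 24 samples correlated best with their own number, a hint of pairing from the data and not from the design. The replicate block ended no call among the 9 genes. It called 9 with LPS in WT, 6 with LPS and 3 in the LPS interaction between the labels, and 7 for zymosan against LPS under the KO label. The 4 added calls were Ltc4s in WT LPS (edgeR adjusted p = 0.0237), Alox5 between the labels with LPS (0.00463), Lta4h in the LPS interaction (0.0379) and Ltb4r1 for zymosan against LPS under the KO label (0.00253). The share of all genes called with the block is not given here, so the added calls are not read as particular to these genes.

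Signs turned round only among values near 0 that were not called. In replicates 1 and 2 alone, log2 values were 0.0759 for Alox15 in the zymosan interaction, -0.0849 for Alox15 in WT zymosan against LPS, -0.0947 for Cysltr1 and 0.003 for Ltb4r1 between untreated labels, -0.0935 for Ltc4s in KO LPS against untreated, and -0.14 for Ltc4s between labels with zymosan. In replicates 3 and 4 alone they were -0.23 for Alox12 and 0.17 for Ltc4s in the zymosan interaction, -8e-04 for Cysltr2 and -0.0197 for Ltb4r1 between labels with zymosan, and 0.12 and -0.0461 for Ltc4s in KO and in WT zymosan against untreated. With no filter, Ltc4s in KO LPS against untreated was at -0.004. The cause was not tested. Without single libraries the ranges were -0.0862 to 0.0157 (Alox12, labels, LPS), -0.14 to 0.23 (Alox12, zymosan interaction), -0.0313 to 0.14 (Alox15, WT zymosan against LPS), -0.15 to 0.0619 (Alox15, zymosan interaction), -0.0147 to 0.13 (Alox5, zymosan interaction), -0.0386 to 0.0869 (Ltb4r1, labels, zymosan), and for Ltc4s -0.0606 to 0.10 (KO LPS against untreated), -0.10 to 0.0153 (KO zymosan against LPS), -0.0907 to 0.0658 (KO zymosan against untreated) and -0.0872 to 0.0846 (labels, zymosan).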
